A study of Mus musculus with 8 samples.

Results

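The IQGAP scaffold paralogs are the 3 mouse genes Iqgap1, Iqgap2 and Iqgap3, out of 22180 genes represented on the arrays. Iqgap2 was chosen by its measured change, since it had the largest rise of all genes in cells without VWA8, and Iqgap1 and Iqgap3 were added as its paralogs. The KO group was 4 cultures of AML12 mouse hepatocytes in which CRISPR/Cas9 had deleted the Vwa8 gene (genotype VWA8-null), and the WT group was 4 cultures of the same line with a wild-type gene. AML12 is an established cell line, and both groups grew in medium with serum, insulin, transferrin, selenium and dexamethasone, a synthetic glucocorticoid, and were differentiated before RNA was taken. The VWA8 protein sits in mitochondria and carries an ATPase domain. No source used here says how many KO clones there were, and the deletion and a difference between clones cannot be told apart.

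IQGAP proteins are large scaffolds of the cell cortex. A calponin homology domain binds actin filaments, IQ motifs bind calmodulin and myosin light chains, and a domain related to Ras GTPase-activating proteins binds the small GTPases Cdc42 and Rac1 and holds them in their active, GTP-bound form rather than switching them off. IQGAP1 is found in most tissues and gathers kinases of the MAP kinase and PI3K cascades at adhesions and at the leading edge. IQGAP2 is known mainly from liver, and IQGAP3 from dividing cells and epithelia. Mice that lack IQGAP2 develop liver tumours in a way that depends on IQGAP1.

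The sequence around the start site of each gene is shown because Iqgap2 changed in the opposite direction to its paralogs, and because their start regions differ in composition. Whether composition bears on the direction of change was not tested. Each window is the RefSeq promoter of assembly GRCm38.p6, 300 bases long and written 5′ to 3′ on the gene's own strand, with the annotated start at base 251. Capitals mark matches on either strand to the GC box (GGGCGG) or to the CHR element (TTTGAA) known from genes of the late cell cycle. Iqgap2 is shown from chr13:95891873-95892172 (minus strand), Iqgap1 from chr7:80803282-80803581 (minus strand) and Iqgap3 from chr3:88081801-88082100 (plus strand).
Iqgap2: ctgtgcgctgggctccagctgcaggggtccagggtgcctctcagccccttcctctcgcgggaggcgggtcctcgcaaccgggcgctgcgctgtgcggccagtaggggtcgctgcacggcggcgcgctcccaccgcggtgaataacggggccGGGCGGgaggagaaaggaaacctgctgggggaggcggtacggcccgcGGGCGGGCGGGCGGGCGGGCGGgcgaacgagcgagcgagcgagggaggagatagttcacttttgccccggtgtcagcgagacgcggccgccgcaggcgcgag
Iqgap1: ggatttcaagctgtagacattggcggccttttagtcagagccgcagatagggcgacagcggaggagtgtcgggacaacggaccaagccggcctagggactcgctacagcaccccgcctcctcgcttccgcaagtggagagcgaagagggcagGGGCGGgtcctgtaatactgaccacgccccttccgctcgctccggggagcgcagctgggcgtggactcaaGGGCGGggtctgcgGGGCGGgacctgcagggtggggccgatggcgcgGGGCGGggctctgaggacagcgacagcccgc
Iqgap3: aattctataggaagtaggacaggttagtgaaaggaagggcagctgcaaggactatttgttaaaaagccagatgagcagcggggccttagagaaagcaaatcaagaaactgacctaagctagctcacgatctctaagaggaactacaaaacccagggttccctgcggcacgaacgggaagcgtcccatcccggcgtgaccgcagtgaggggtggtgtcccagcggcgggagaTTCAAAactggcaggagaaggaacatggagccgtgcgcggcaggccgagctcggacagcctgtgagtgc

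The Iqgap2 window held 6 GC box matches, 5 of them overlapping in a run just before the start, and no CHR match. The Iqgap1 window held 4 GC box matches and no CHR match. The Iqgap3 window had no GC box match and 1 CHR match, which lies on the minus strand at bases 232 to 237 of the window. Over 32851 such windows of 27025 genes, 35.7% held a GC box match and 17.9% a CHR match. G and C made up 74.3% of the Iqgap2 window, 68.3% of the Iqgap1 window and 55.3% of the Iqgap3 window, against a median of 52.7% over all windows. The Iqgap2 window contained 41 CpG dinucleotides, that of Iqgap1 28 and that of Iqgap3 16, where the median window had 7. Of the other motifs searched on both strands, the CCAAT box (CCAAT, in 37.4% of windows) matched 1 time, in Iqgap1. The TEAD motif (GGAATG, in 14.7%), the HNF1 hexamer (GTTAAT, in 7.1%) and the HNF4A motif (CAAAGTCCA, in 0.5%) matched none of the 3 windows.

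Signals are the authors' deposited values on a log2 scale, with 1 probe set for each IQGAP gene and none shared with another gene symbol, so a gene's brightest probe set is its only one here. The median probe set averaged 4.28 over the 8 arrays, and array medians ran from 4.27 to 4.33. Arrays correlated with r of 0.986 to 0.989 within the KO group, 0.985 to 0.989 within the WT group and 0.978 to 0.984 across genotypes. Vwa8 itself, the check of the labels, averaged 5.18 ± 0.116 in KO cells and 8.95 ± 0.041 in WT cells (SD, n = 4 each). All 12 measured hepatocyte markers lay above the median probe set in both genotypes, as did 4 of 5 cholangiocyte markers, Sox9 and Krt19 being the brightest of these, 3 of 9 macrophage and leukocyte markers, 1 of 10 stellate and fibroblast markers and 1 of 8 endothelial markers. Precision is limited by the 4 arrays of each group, and levels of different genes are not set against each other, because each probe set has its own brightness.

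Iqgap2 was a bright signal in the KO cells and lay close to the median probe set in the WT cells. Its probe set, 17295136 (Entrez Gene 544963, chromosome 13), read 8.66, 8.77, 8.67 and 8.91 in KO replicates 1 to 4, against 4.83, 4.49, 5.09 and 4.84 in WT replicates 1 to 4. Every KO array was above every WT array, and the gap between the lowest KO value and the highest WT value, 3.57, was 5.93 times the range of the WT arrays. The means were 8.75 ± 0.117 in KO cells and 4.81 ± 0.247 in WT cells (SD, n = 4 each).

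The log2 difference of Iqgap2, KO minus WT, was 3.94 ± 0.123 (SE), or 15.4-fold. Because this contrast chose the gene, the difference is a description and carries no test. Of all rises, the next in size were Slc10a1, the bile acid uptake transporter, at 3.41, and Hsd3b2, a steroid dehydrogenase, at 3.23, also given as descriptions. The WT mean of Iqgap2 was 0.53 above the median probe set. No separate measure of background was available, so it cannot be said how much of the WT signal came from Iqgap2 RNA, and a fold from a signal this dim can be compressed. In these cultures, fewer cells with the transcript and less transcript per cell cannot be told apart.

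**Figure D1:**
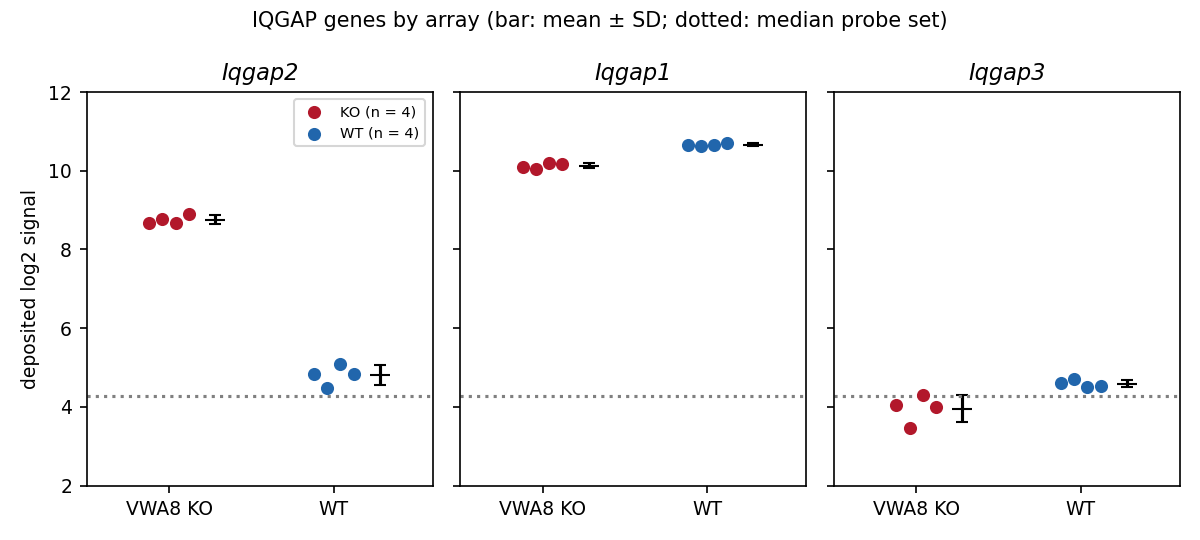
Deposited log2 signal (vertical axis) of Iqgap2, Iqgap1 and Iqgap3 in 4 KO arrays (red) and 4 WT arrays (blue), 1 point per array, with the mean ± SD beside the points and the median probe set, 4.28, as a dotted line. The Iqgap2 points lie between 8.66 and 8.91 in KO and between 4.49 and 5.09 in WT, while the KO points of Iqgap1 and Iqgap3 lie below their WT points.

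Iqgap1, the widely expressed member, was lower in the KO cells by a small step. Probe set 17492661 (Entrez Gene 29875, chromosome 7) read 10.10, 10.04, 10.21 and 10.17 in KO replicates 1 to 4, against 10.64, 10.64, 10.64 and 10.71 in WT replicates 1 to 4. The groups did not overlap, with 0.43 between the highest KO and the lowest WT value. Means were 10.13 ± 0.072 in KO cells and 10.66 ± 0.034 in WT cells (SD, n = 4 each).

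Iqgap1 fell by 0.53 ± 0.058 (SE) on the log2 scale, so that its signal was 1.44-fold lower in the KO cells. The 95% interval of the difference ran from -0.66 to -0.40, with an adjusted p of 0.000248 in limma, Benjamini-Hochberg adjusted over all genes. The exact permutation test of the 8 arrays gave p = 0.0286, two-sided, which is the smallest p that 4 arrays against 4 can give. The transcript thus remained a bright signal in both genotypes, 5.85 above the median probe set in KO cells and 6.38 above it in WT cells.

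Iqgap3, the member known from proliferating cells, was dim in both genotypes and lower in the KO cells. Probe set 17398929 (Entrez Gene 404710, chromosome 3) read 4.05, 3.48, 4.31 and 4.00 in KO replicates 1 to 4, against 4.62, 4.71, 4.50 and 4.53 in WT replicates 1 to 4. The groups did not overlap, but only 0.19 separated KO replicate 3 from WT replicate 3, and KO replicate 2 lay well below the other KO arrays. Means were 3.96 ± 0.351 in KO cells and 4.59 ± 0.093 in WT cells (SD, n = 4 each).

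Iqgap3 fell by 0.63 ± 0.158 (SE) on the log2 scale, a 1.55-fold lower signal (95% interval -0.99 to -0.27). The limma adjusted p was 0.0202 over all genes, and the exact permutation test again gave its smallest value, p = 0.0286, two-sided. The call was lost without WT replicate 1 (-0.62, adjusted p = 0.0527) and without WT replicate 2 (-0.59, adjusted p = 0.0568). The KO mean was 0.32 below the median probe set. Without a separate measure of background, it cannot be said how much of this dim signal came from Iqgap3 RNA. The size of the fall can therefore be compressed.

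Calls of this kind were common in the comparison as a whole. Of all genes, 20.9% passed the limma threshold of an adjusted p of 0.05, 10.4% as higher in KO cells and 10.4% as lower. The 4 KO arrays lay entirely above or below the 4 WT arrays for 26.1% of genes, and did so for both Iqgap1 and Iqgap3, the members not chosen by their change. Iqgap1 had the 805th largest fall and Iqgap3 the 595th among 22180 genes. The intervals of these 2 falls overlap, and the median difference over all genes was -0.003. The place of Iqgap2 at the upper end was fixed by the way it was chosen.

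**Figure D2:**
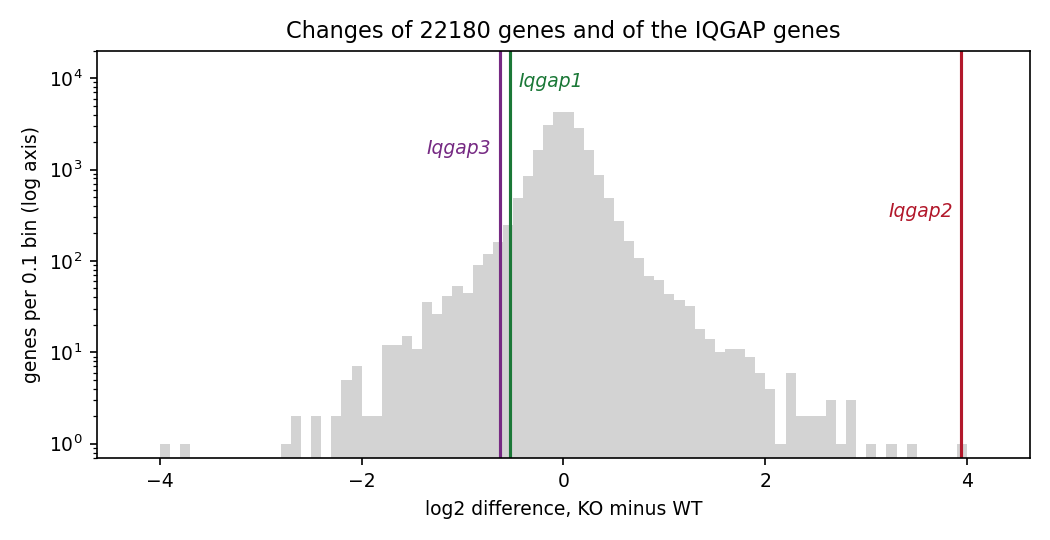
Number of genes (vertical axis, log scale) by log2 difference, KO minus WT (horizontal axis, bins of 0.1), over 22180 genes, with lines at the 3 IQGAP genes. Iqgap2 stands at 3.94, at the right end of the distribution, and Iqgap1 and Iqgap3 at -0.53 and -0.63 on its left flank.

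Genes whose signals followed each IQGAP gene most closely over the 8 arrays were found by the root mean square distance between log2 values, each gene centred on its own mean, among 12398 genes brighter than the median probe set in at least 1 genotype. For Iqgap2 these were Slc10a1 (distance 0.388), Hsd3b2 (0.459) and Pax3, a transcription factor of neural crest and muscle (0.465). For Iqgap1 they were Ly75, an endocytic receptor, at 0.034, Wwc2, a relative of the Hippo regulator KIBRA, at 0.035, and Wdr1, a cofactor of actin filament disassembly, at 0.035. The genes nearest to Iqgap3 were Phlda3, a p53 target that restrains Akt, at 0.090, Faxc at 0.140 and Plekho1, a binding partner of casein kinase, at 0.143. The distance is a description. It is made mostly of the difference between the genotypes, so it selects genes with a change of the same size and direction.

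The genes beside Iqgap2 did not share its rise. Among 10 measured neighbours, 5 to either side, 0 passed in limma in either direction (2 at an unadjusted p under 0.05). Of all genes, 20.9% passed, and the differences of these neighbours ran from -0.25 to 0.15. The nearest on one side was F2r, the thrombin receptor PAR1, which averaged 4.23 ± 0.278 in KO cells and 4.08 ± 0.148 in WT cells (SD, n = 4 each), a difference of 0.15 ± 0.139 (SE; limma adjusted p = 0.529). On the other side F2rl2, which encodes the related receptor PAR3, stood at -0.08 ± 0.143 (adjusted p = 0.759). The next genes outward, S100z, a calcium-binding protein, at -0.25 (adjusted p = 0.151) and Sv2c, a synaptic vesicle protein, at 0.04 (adjusted p = 0.871), did not pass. The median difference over the genes of chromosome 13 brighter than the median probe set was -0.04.

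The genes around Iqgap1 were slightly lower in the median, as was the gene itself. Of its 10 neighbours on chromosome 7, 2 fell and none rose, where 20.9% of all genes passed in either direction. The median difference of the 10 neighbours was -0.14. Those that fell were Crtc3, a coactivator of CREB, at -0.31 ± 0.059 (adjusted p = 0.00544) and Blm, a DNA helicase, at -0.31 ± 0.091 (adjusted p = 0.0404), the last named after its values were seen. Gm15880 at -0.06, Zscan2, a zinc finger protein, at -0.18 and Wdr73 at -0.15 did not pass. Iqgap1 stood below all of them, and at -0.46 (adjusted p = 0.000611) once the median change of the 30 closest brighter genes to either side had been subtracted.

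Iqgap3 was lower on a stretch of chromosome 3 whose genes were slightly higher in the median. Of its 10 neighbours 1 rose, Gpatch4 at 0.39 ± 0.092 (adjusted p = 0.0162), named after its values were seen, and none fell. Over all genes 20.9% passed, and the median difference of the 10 neighbours was 0.15. The nearest were Ttc24 at 0.11, Naxe, an enzyme of NADHX repair, at 0.24, Mef2d, a transcription factor, at 0.19 and AW047730 at 0.40, and none of these passed (adjusted p from 0.0702 to 0.677). Genes of chromosome 3 brighter than the median probe set had a median difference of 0.20. With the change of neighbouring genes subtracted, Iqgap3 stood at -0.77 (adjusted p = 0.00862).

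**Figure D3:**
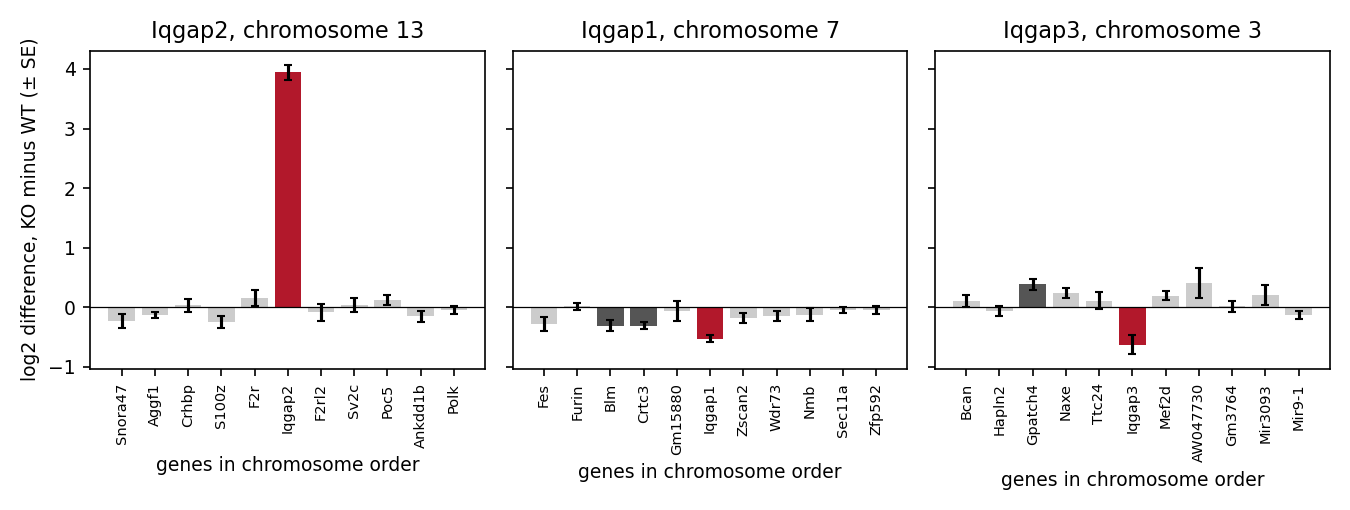
Log2 difference, KO minus WT, ± SE (vertical axis), of each IQGAP gene (red) and the 5 nearest measured genes on each side in chromosome order (dark grey where the limma adjusted p was under 0.05, light grey otherwise). The genes around Iqgap2 lie between -0.25 and 0.15 beside its 3.94, and Iqgap3 points down among neighbours with a median of 0.15.

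The GTPases that IQGAP proteins bind were slightly lower or did not pass. Of 7 measured genes for small GTPases and calcium-sensor or light chain partners, 3 fell and none rose, where 10.4% of all genes were lower. Their median difference was -0.27. Rac1, a direct partner, averaged 10.38 ± 0.049 in KO cells and 10.65 ± 0.053 in WT cells (SD, n = 4 each), a difference of -0.27 ± 0.056 (SE; adjusted p = 0.0089). Rap1b stood at -0.38 (adjusted p = 0.00114) and Rhoc at -0.31 (adjusted p = 0.00626). Cdc42, the other direct partner, averaged 9.90 in KO cells and 9.95 in WT cells and did not pass, at -0.05 ± 0.05 (adjusted p = 0.579). Rac1 and Rap1b lie where neighbouring genes were lower too, and with those changes subtracted they stood at -0.13 (adjusted p = 0.153) and -0.14 (adjusted p = 0.11), which left 1 of the 7, Rhoc, past the threshold.

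Several partners at the actin cortex fell, while beta-catenin and E-cadherin did not pass. Of 14 measured adhesion and cytoskeleton genes, 6 fell and none rose (median -0.13), where 10.4% of all genes were lower. Flna, the actin crosslinker filamin A, averaged 8.58 in KO cells and 9.68 in WT cells and stood at -1.10 ± 0.053 (adjusted p = 2.81e-06). Cd44, the hyaluronan receptor, stood at -1.07 ± 0.072 (adjusted p = 1.61e-05) and Ezr, which links the membrane to actin, at -0.95 ± 0.068 (adjusted p = 2.27e-05). Ctnnb1 (beta-catenin) was at -0.09 ± 0.053 (adjusted p = 0.28), and Cdh1 (E-cadherin) was at 0.01 ± 0.051 (adjusted p = 0.914). The list also holds Actb and Actg1, whose coding sequences are so alike that their probe sets may share signal.

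Most genes for the kinases that IQGAP1 is known to gather did not pass. Of 13 measured genes of the MAP kinase and PI3K cascades, 4 fell and 1 rose, where 20.9% of all genes passed, and the median difference was 0.01. The largest of these changes was in Ksr1, a second scaffold of the MAP kinase cascade, at 4.87 ± 0.151 in KO cells and 5.84 ± 0.108 in WT cells (SD, n = 4 each), a difference of -0.97 ± 0.090 (SE; adjusted p = 0.000101). Pip5k1c, a kinase that makes the lipid PIP2, stood at -0.47 (adjusted p = 0.00212) and Akt1 at -0.28 (adjusted p = 0.0194). The count of 5 dropped to 3 without WT replicate 2, WT replicate 4, KO replicate 1 or KO replicate 3. The 1 rise, Pik3ca at 0.22 (adjusted p = 0.0327), was named after its values were seen. With quantile normalization, or with any 1 array left out other than WT replicate 4, no gene of the list passed as higher.

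Genes for other proteins with a RasGAP domain, the domain family to which part of IQGAP is related, went both ways. Of 9 measured, 2 rose and 2 fell (median -0.10), where 20.9% of all genes passed. Rasa3, a GAP for Ras and Rap, was higher at 0.67 ± 0.093 (adjusted p = 0.00096), as was Gapvd1, which acts in endocytosis, at 0.26 (adjusted p = 0.0157). Rasal2 stood at -0.24 (adjusted p = 0.0184). The count of 4 was 2 without WT replicate 2, WT replicate 4 or KO replicate 3, and 2 with the change of neighbouring genes subtracted, which put Gapvd1 at 0.08 (adjusted p = 0.42). The differences of all 9 ran from -0.28 to 0.67.

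The fall of Iqgap3 went with that of every measured gene on a list of mitosis and cytokinesis genes. All 21 fell, with a median difference of -1.69, where 10.4% of all genes were lower. Top2a, a topoisomerase of dividing cells, stood at -2.02 ± 0.058 (adjusted p = 3.95e-07), Kif23, a kinesin of the midbody, at -2.06 ± 0.065 (adjusted p = 4.85e-07), Plk1, a mitotic kinase, at -2.23 ± 0.076 (adjusted p = 4.98e-07) and Mki67, the proliferation marker, at -2.66 ± 0.115 (adjusted p = 1.52e-06). The smallest of these falls, that of the mitotic kinase Aurka at -0.78, lies within the interval given for Iqgap3. All the others, from Cit at -1.05 to Mki67 at -2.66, were larger falls than this interval reaches. Of the 18 genes of this list with a promoter sequence, 13 held a CHR match (17.9% of all windows did), 15 a GC box match (35.7%) and 14 a CCAAT match (37.4%). The counts are per gene, with a match in any of its windows, and the shares are per window, so these measures are not alike. The Iqgap3 window held the CHR match and neither of the others. The genes of this list were known from earlier results of these data to be lower, so their direction is no independent evidence. How far the share of dividing cells entered the Iqgap3 value was not tested.

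Targets of Wnt signalling, a pathway in which IQGAP1 and beta-catenin have been linked, passed about as often as genes in general. Of 13 measured, 2 fell and 1 rose (median -0.12), where 20.9% of all genes passed. Ccnd1, which encodes cyclin D1, stood at -0.96 ± 0.051 (adjusted p = 4.62e-06) and Myc at -0.67 ± 0.069 (adjusted p = 0.000176), and both also respond to many other signals. Cyp2e1, a pericentral hepatocyte gene, was dim and higher at 0.37 ± 0.087 (adjusted p = 0.0144). The remaining 10, with Axin2 at -0.22 (adjusted p = 0.172), did not pass. In each genotype only 6 of the 13 lay above the median probe set, which limits what these calls can show. Axin2 was near it, at 4.13 in KO cells and 4.35 in WT cells. With the change of neighbouring genes subtracted, 5 of the 13 passed, 4 of them lower and 1 higher.

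**Figure D4:**
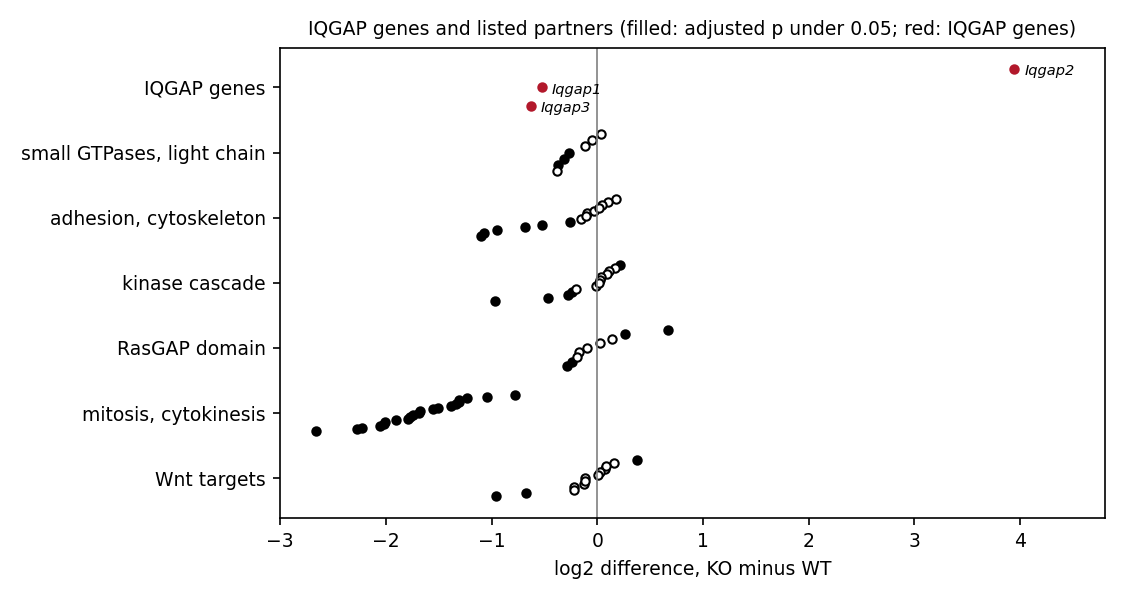
Log2 difference, KO minus WT (horizontal axis), of the 3 IQGAP genes (red) and of each measured gene of 6 lists (black; filled where the limma adjusted p was under 0.05, open otherwise), 1 point per gene. All 21 mitosis and cytokinesis genes lie to the left of zero, and the highest listed gene is at 0.67. The place of Iqgap2, at 3.94, was fixed by the way it was chosen.

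Hepatocyte markers were higher in the KO cells, as Iqgap2 was. Platelets are another place where IQGAP2 is known, but the cultures were of a hepatocyte line, so platelet genes are given only as a description. All 12 measured hepatocyte markers rose (median 0.79), where 10.4% of all genes were higher and 10.4% lower. Their mean log2 signal ran from 10.35 to 10.44 over the KO arrays and from 9.11 to 9.23 over the WT arrays. The lists were chosen with earlier results of these data known, so this direction is no independent evidence. Slc10a1, 1 of the 12, also had the next largest rise of all genes after Iqgap2. Of 4 platelet and megakaryocyte markers none rose and 1, Ppbp, fell, with mean signals of 3.39 to 3.54 in KO arrays and 3.46 to 3.64 in WT arrays. Itga2b, the platelet integrin chain, was near the median probe set at 4.40 in KO cells and 4.34 in WT cells. Gp9 was near it too, at 4.16 in KO cells and 4.42 in WT cells, and did not pass (limma adjusted p = 0.0503). Below it lay Pf4, a platelet chemokine, at 2.42 in KO cells and 2.29 in WT cells, and Ppbp, at 2.94 and 3.29. Of 5 cholangiocyte markers 2 fell, Cftr and Krt7, and none rose, with mean signals of 6.15 to 6.31 in KO arrays and 6.44 to 6.60 in WT arrays. Of 9 macrophage and leukocyte markers 1 fell, Cd14, and of 10 stellate and fibroblast and 8 endothelial markers none passed in limma (1 and 0 at an unadjusted p under 0.05). The part of these markers in the Iqgap2 difference was not tested.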

How the data were processed

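Biotin-labelled RNA of 8 AML12 cultures was put on Affymetrix mouse arrays, 1 per culture, per the labels' protocols. The authors deposited log2 signals, 1 for each probe set on each array, between 0.44 and 13.55. That the scale is log2 follows from these values. How background was corrected and arrays were normalized is not given in the sources. Nothing further was normalized. Of 41345 probe sets, 23521 had 1 gene symbol in the platform annotation, 1814 several and 16010 none listed. Each gene was represented by its brightest single-symbol probe set over all 8 arrays. Of 9 listed genes with several, none had calls in opposite directions.

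Genotypes were compared with limma 3.58.1 in R 4.3.3, genotype as the only term, with two-sided p-values and Benjamini-Hochberg adjustment over all 22180 genes (threshold 0.05). The fit was checked on simulated data. The labels say that cultures were separate and no more, so p-values measure the spread between these samples, which may be partly technical.

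The members and lists were chosen with earlier results of these data known. Of 141 list symbols, 125 were measured, and the others were not analysed here. Named genes are the members, Vwa8, Cdc42, Rac1, Ctnnb1, Cdh1, Mki67, up to 3 per pathway list by adjusted p, the 2 nearest genes on each side of a member, and the 3 most alike. Others were named after their values were seen. Gene order came from RefSeq's GRCm38.p6 table, which placed 21994 genes. Alternatives were quantile normalization, a replicate block, array weights, centring on medians, an intensity trend with robust variances, no probe sets from the lowest 25% or 50% by mean signal, averaged probe sets, all probe sets in the fit, each array left out and, added after seeing the data, subtracting the median change of neighbouring genes. Plots used matplotlib 3.10.9 (Python 3.11.15).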

Additional observations from a re-analysis of the deposited data

Results flagged for a closer look

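In 47 named genes the arrays of each genotype were searched for a value far from the other 3, by the gap to its nearest neighbour over the whole range (Dixon's ratio). Of 94 groups 4 stood out, and chance gives about 1 in 20. In Iqgap1, WT replicate 4 was at 10.71 above 3 values of 10.64 (ratio 0.911), a distance small beside the difference between genotypes. Mki67 in KO replicate 3 was at 6.48, above 6.05 to 6.12 in the other KO arrays (ratio 0.833). Near Iqgap2, S100z in WT replicate 2 was at 2.80, above 2.46 to 2.50 in the other WT arrays (ratio 0.88). Beside Iqgap1, Zscan2 in WT replicate 4 was at 7.51, above 7.21 to 7.25 in the other WT arrays (ratio 0.863).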

How the results depend on the processing

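The rise of Iqgap2 ran from 3.83 to 4.04 and the fall of Iqgap1 from -0.55 to -0.46 over 18 alternatives each, and Iqgap1 stayed past the threshold in all of them (adjusted p from 4.42e-08 to 0.00424). Iqgap3 kept its direction in 17 alternatives and its call in 14 (adjusted p from 0.00505 to 0.0569), and without single arrays it ran from -0.75 to -0.47. It had no value without the dimmest 50% of probe sets, because its own mean lies in that share. Replicate numbers are shared between the groups, but deviations of same-numbered cultures correlated with r of only -0.002 to 0.059, and not every culture correlated best with its own number. With the replicate block Iqgap3 was at -0.63 (adjusted p = 0.0569), the kinase list had 2 calls in place of 5, and calls over all genes numbered 3717 in place of 4626. No other result changed its call or moved by over 1.5 times with the block. Leaving out single arrays gave 3 to 4 calls in the kinase list and 2 to 5 in the RasGAP list. Subtracting the change of neighbouring genes left 1 call of 3 in the GTPase list, 2 of 4 in the RasGAP list and 5 in place of 3 among Wnt targets. The cause of these shifts was not tested. The 21 mitosis and cytokinesis genes kept 19 to 21 calls in every alternative run. Dim signals, Iqgap3 in both genotypes and Iqgap2 in WT, limit what can be read of their size.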
